A study of Mus musculus with 2 samples.

Results

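The contacts described here are those inside a 400 kb stretch of mouse chromosome 1, from 120980001 to 121380000 on mm9, that holds Inhbb. They come from 1 capture Hi-C map of the En1 locus, in which chromatin was fixed, cut with DpnII and religated, so that a sequenced read pair records 2 positions that lay close together. The stretch runs from the insulation boundary above Gli2 to just past the boundary in Ralb, both called on this same map with the Inhbb bin kept. The members are all pairs of 10 kb bins with both ends in the stretch and at least 20 kb apart, without the bin 121310001 to 121320000 that holds the Inhbb start. This gave 39 bins and 704 pairs, of 111629 pairs at 20 kb or more in the whole map. With 5 kb bins there were 78 bins and 2780 pairs, of 434816. The domain limits and the corner pair were picked from the contact values, so their height against the surroundings is a description and carries no test.

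The cells were those of forelimbs and hindlimbs of wild-type mouse embryos at E10.5, dissociated with trypsin and fixed in 2% PFA. The labels name both tissues for each sample and give no strain, number of embryos or other treatment. The 2 samples carry the same genotype label and both have replicate number 2 in their titles. Only a map named as merged was used here, and how each sample enters it is not stated, so no value below has an SD or an n, and every interval covers counting error only. Whole limbs contain many cell types, and contacts made in few cells cannot be told apart from weak contacts made in all of them.

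Mammalian chromosomes are divided into domains within which positions meet more often than across their borders. Many borders bind CTCF, which halts the cohesin complex as it draws chromatin into a loop, and the borders of a domain then often meet each other, which appears as a bright corner in a contact map. Inhbb encodes the beta B subunit of activins and inhibins, secreted signals of the TGF-beta superfamily. Ralb encodes a small GTPase of the Ras family, and Gli2 a transcription factor of Hedgehog signalling.

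The stretch was poor in genes. Inhbb (ENSMUSG00000037035.5, minus strand, 121312042 to 121318825) lies wholly inside the bin that was left out. Ralb (ENSMUSG00000004451.8, minus strand, 121366882 to 121401371) reaches into the last 2 bins with its 3′ part, and its start lies outside. The other 37 member bins overlapped no annotated gene. Gli2 (120730709 to 120950196, minus strand) lies wholly below the stretch.

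Matches to the 12-letter CTCF core consensus were searched on both strands, since this sequence is the known mark of many domain borders. The lowest bin of the stretch held 2 matches, on opposite strands and both in its lower 5 kb. The bin just below the stretch held 1, and the bin at 121240001 held the remaining match of the stretch. Of the 39 member bins, 2 (5.13%) held a match, against 29 of 475 bins (6.11%) in the whole map. The 3 bins at the upper end, from 121350001 to 121380000, held none, which says only that these letters do not occur there. A match is a sequence and no evidence of binding. Each sequence is written on the strand of its match, 5′ to 3′, with the match in capitals, and the matches are shown because the strongest contacts of the stretch start in and beside the bin that holds the second and the third.
Below the stretch, chr1:120971644-120971683, plus strand: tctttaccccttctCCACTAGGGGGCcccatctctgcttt
Lowest bin, chr1:120980411-120980450, minus strand: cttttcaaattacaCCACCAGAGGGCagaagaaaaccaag
Lowest bin, chr1:120984285-120984324, plus strand: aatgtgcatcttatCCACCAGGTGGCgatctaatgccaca
Inner bin, chr1:121242110-121242149, plus strand: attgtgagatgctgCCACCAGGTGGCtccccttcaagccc

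The stretch was deeply covered. Bin totals ran from 15473 read pairs in the bin at 121350001 to 53940 in the bin at 121170001, with a median of 27931, against 22376 over the whole map. The members held 197972 of the 6484654 read pairs of the map, and no member pair was empty at either bin size. Counts per 10 kb pair ran from 54 to 1788 with a median of 193.5, and per 5 kb pair from 3 to 670 with a median of 48. Bins with more DpnII sites (16 to 38 per member bin) tended to have higher totals, with a Spearman correlation of 0.57 over the 39 member bins, all of 1 library set. The observed/expected value of a bin, introduced with the single bins, correlated with its total at −0.43. The part of coverage in these values was not tested beyond the balancing.

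The authors' balanced contact value (KR), in which each bin has the same total, fell steeply with distance at first, then levelled off, and then rose again. Its mean over member pairs was 679 ± 3.90 at 20 kb (Poisson standard error, as for the next values) over 36 pairs. It was 158 ± 2.05 at 100 kb over 29 pairs and 112 ± 2.14 at 200 kb over 19 pairs. From 200 to 320 kb it stayed between 100.004 and 115, so the mean hardly changed over that range. Distance and position cannot be told apart here, since longer pairs lie closer to both ends of the stretch. Beyond it the mean climbed, to 156 ± 5.70 at 350 kb over 5 pairs and 183 ± 8.24 at 370 kb over 3 pairs. The corner pair, the only one at 390 kb, had 248 ± 14.9. This did not differ beyond counting error from the mean of pairs 60 kb apart, at 238 ± 2.37. Pairs at 300 kb or more can only join the first and last 100 kb of the stretch, so the rise belongs to those ends. Pairs 10 kb apart, just outside the distance limit, had a mean of 1647.

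On log scales the slope of this decay from 20 to 300 kb was −0.640 (95% interval −0.649 to −0.632). It was −0.900 (−0.912 to −0.889) from 20 to 100 kb and −0.524 (−0.567 to −0.480) from 100 to 200 kb. Between 200 and 300 kb it was −0.125 (−0.240 to −0.0101), and between 300 and 390 kb it turned positive, at 3.32 (3.003 to 3.65). Without the corner pair that last slope was 3.15 (2.82 to 3.48), so the rise was shared by the pairs around it. The slope therefore describes no single power law here, and fitting all distances from 20 kb gave −0.418.

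The neighbouring domains decayed differently. The Gli2 domain next below, from 120660001 to 120980000, had a shallower slope of −0.485 from 20 to 300 kb, a difference of −0.155 (−0.168 to −0.143) for the Inhbb stretch minus the Gli2 domain. The domain next above, from 121370001 to 121900000 with the start of Ralb, had a steeper slope of −0.827, a difference of 0.186 (0.175 to 0.198). The Inhbb stretch lay between both, outside counting error. From 200 to 300 kb the Gli2 domain, 320 kb long, was already rising, with a slope of 1.22, whereas the domain above was still falling at −0.721. From 300 to 390 kb that domain had a slope of −0.221 (−0.422 to −0.0203), where the Inhbb stretch rose. The whole map without its poorly covered bins fell at −0.863 from 20 to 300 kb and at −0.873 from 300 to 390 kb.

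**Figure D1:**
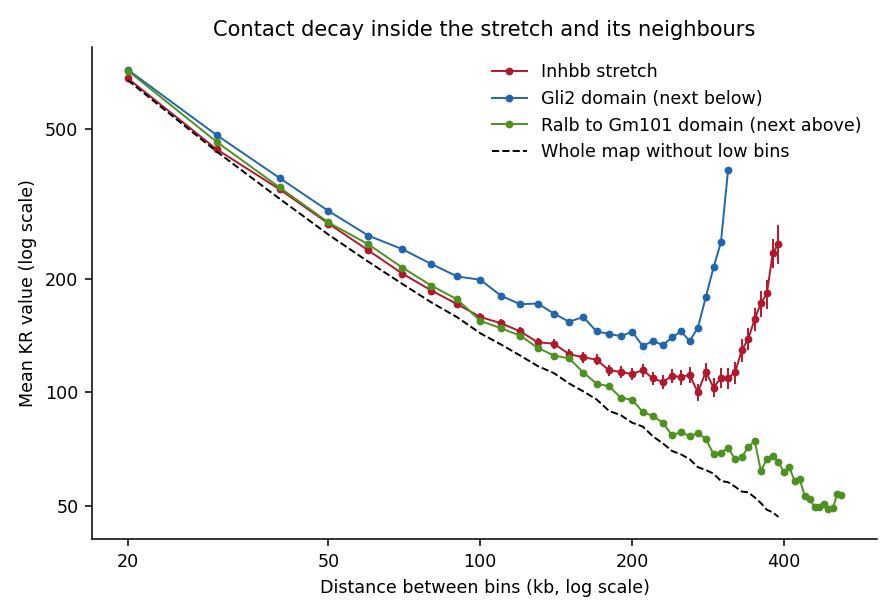
Mean KR value (log scale) against the distance between bins (kb, log scale) for the Inhbb stretch, with 95% Poisson error bars, for the domains next below and above, and for the whole map without bins under 25% of the median total. The Inhbb values level off between 200 and 320 kb and rise to 248 at 390 kb, while the dashed line of the map goes on falling.

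Single pairs were then compared with an expected count, obtained by scaling the whole map's mean KR value at that distance with the 2 bins' own balancing factors. Summed over all members, observed/expected was 1.083 (95% Poisson interval 1.078 to 1.088), so the stretch as a whole was close to the average of the map. The excess grew with distance. Observed/expected was 1.002 (0.997 to 1.008) over 263 pairs at 20 to 90 kb and 1.13 (1.12 to 1.14) over 245 pairs at 100 to 190 kb. It was 1.37 (1.35 to 1.38) over 145 pairs at 200 to 290 kb and 2.42 (2.36 to 2.47) over 51 pairs at 300 to 390 kb. All of those 51 pairs were above 1, from 1.19 to 5.12. At short range the stretch thus had about as many contacts as the map average, and at long range more than that average.

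The average of the map includes pairs that cross a boundary, which become more frequent with distance. An alternative expected value came from pairs inside 1 domain only, taken from the other domains of the map. Observed/expected was then 1.017 (1.011 to 1.022) at 20 to 90 kb and 1.011 (1.002 to 1.020) at 100 to 190 kb. It was 1.15 (1.13 to 1.16) at 200 to 290 kb and 1.53 (1.49 to 1.56) at 300 to 390 kb. At 100 to 190 kb, little of the excess over the map average was thus left. This alternative was added after the data were seen. The excess at the ends of the stretch was therefore smaller, but present, against pairs inside other domains. At 390 kb those pairs came from domains longer than the stretch, so most did not join both ends. This is no comparison of ends with ends. Against the map average, the 3 pairs at 300 to 310 kb that join the ends of the Gli2 domain gave 5.01 (4.75 to 5.28). The expected value at 200 kb was raised by the poorly covered bins of the map: the map's mean KR there was 121 with them and 83.1 without. Observed/expected of the members at that distance was 0.926 with them and 1.35 without. Over the whole class of 200 to 290 kb it was 1.37 with them and 1.496 (1.475 to 1.517) without.

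Among the 704 member pairs, 357 (50.7%) had an interval above 1, against 21.3% of all map pairs at 20 to 390 kb. A further 93 (13.2%) had an interval under 1, against 34.8% of the map pairs, and 254 spanned 1. The median observed/expected value was 1.13 over members and 0.916 over those map pairs. The members were chosen as the inside of a domain of this map, so nothing is read from these shares.

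Division into 4 blocks of 100 kb showed where the excess lay. The first block (120980001 to 121080000) with the last (121280001 to 121380000) gave 2.03 (1.99 to 2.06) from 12800 read pairs. The first with the third gave 1.27 (1.25 to 1.29) and the second with the last 1.19 (1.17 to 1.21). The first with the second gave 1.07, the second with the third 1.12 and the third with the last 1.04. Within a block, values were 0.884 (0.871 to 0.897) in the first, 1.03 in the second, 1.01 in the third and 0.836 (0.818 to 0.854) in the last. The outer blocks were therefore low in contacts with themselves and high in contacts with each other. With expected values from pairs inside 1 domain, the first with the last gave 1.39 and the other 9 combinations lay between 0.854 and 1.11.

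**Figure D2:**
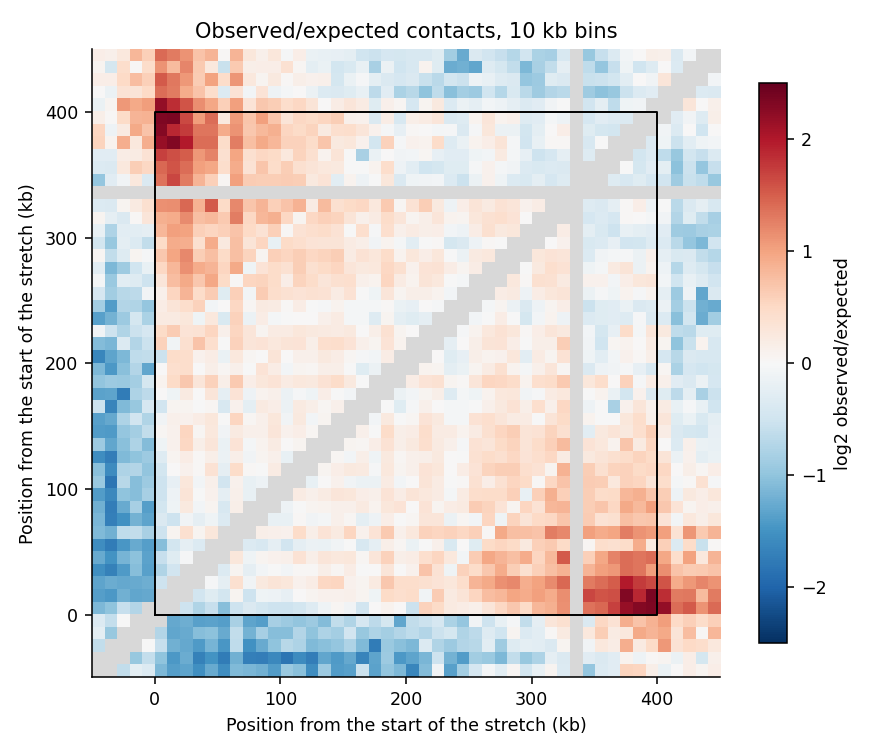
Log2 observed/expected value of each pair of 10 kb bins, by the position of both bins in kb from the start of the stretch, with 50 kb beyond each end. The black square marks the stretch, and grey marks pairs under 20 kb and the left-out Inhbb bin. The highest values sit where both ends of the stretch meet, around the corner pair at 5.06, and the bins below the stretch have low contacts with its lower part, while the bin just below it has 1.58 with the 5 highest bins.

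The corner pair, 120980001 to 120990000 with 121370001 to 121380000, was seen in 275 read pairs against an expected 54.4, which gave 5.06 (4.48 to 5.69). Among the 377 pairs of the map at 390 kb with no poorly covered bin, it had the highest observed/expected value and the highest KR value, and the median observed/expected value of these pairs was 0.815. Against the ring of pairs 2 to 5 bins away it was 2.89-fold higher. This ring lies on all sides of the corner and includes pairs from below the lower edge of the stretch. Summed over the 5 highest bins of the stretch, the bins 120930001 to 120970001 had only 0.899 to 1.58. The part of this edge in the ratio was not tested. With an expected value from the 42 pairs at 390 kb inside other domains, all longer than the stretch, it was 2.83 (2.503 to 3.18). The pair was named because it was high, so these ranks describe it and test nothing.

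The corner was a patch of pairs and not an isolated pair. The bin 120990001 with 121370001 reached 5.12 (4.44 to 5.87) with 205 read pairs. The bin 120990001 with 121350001 had 161 and 5.01 (4.26 to 5.84). The bin 120980001 with 121360001 had 308, the most of the patch, and 4.94 (4.404 to 5.52). These 3 values and that of the corner pair had overlapping intervals, so no single pair stood out as the summit. Between them, the bin 120990001 with 121360001 was lower, at 185 read pairs and 3.67 (3.16 to 4.24).

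Away from the corner into the stretch the value fell, though not steadily. It was 4.57 (4.24 to 4.92) over the 3 pairs 10 kb in, 3.90 (3.64 to 4.19) over the 5 pairs 20 kb in and 2.62 (2.47 to 2.77) over the 7 pairs 30 kb in. Farther in it was 2.46 (2.34 to 2.60) at 40 kb and 1.72 (1.62 to 1.82) at 50 kb. It was 2.08 (1.93 to 2.24) at 60 kb and 1.78 (1.6999 to 1.87) at 70 kb. The value at 50 kb was thus below that at 60 kb, outside these intervals, but the bins differ. The 11 pairs at 50 kb include those of 121030001, the bin lowest in summed contacts with the stretch (0.884). With the Inhbb bin left out, the 6 pairs at 60 kb all have 121040001, the highest (1.25). Distance from the corner and bin cannot be told apart here. All 16 member pairs within 30 kb of the corner had a lower bound above 1.5, and their values ran from 2.07 to 5.12. The patch thus took in at least the 4 outermost bins on each side, with no sharp inner limit.

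The 2 edges of the patch differed in sharpness. Summed over the 5 highest bins of the stretch, the bin 120970001, just below the stretch, had a value of 1.58 (1.44 to 1.73), while the lowest bin of the stretch at 120980001 had 4.00 (3.77 to 4.23). The next bins inward had 3.80 (3.55 to 4.05) and 3.12 (2.90 to 3.35). Farther below, values were 0.899 (0.798 to 1.01) at 120940001, 1.30 (1.17 to 1.44) at 120950001 and 1.53 (1.39 to 1.68) at 120960001. Contact with the upper end was thus above 1 from 3 bins below the lower edge, and its largest step came at the edge itself. At the upper edge, summed over the 5 lowest bins of the stretch, the bins at 121350001, 121360001 and 121370001 had 3.63, 3.33 and 3.49. The bin 121380001, just above the stretch, still had 3.01 (2.82 to 3.22), and the next, 121390001, had 1.963 (1.83 to 2.10). Bins up to 121430001 kept values of 1.77 to 2.16. The lowest bin with 121380001, 1 bin outside the rule, had 285 read pairs and 4.58 (4.06 to 5.14).

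**Figure D3:**
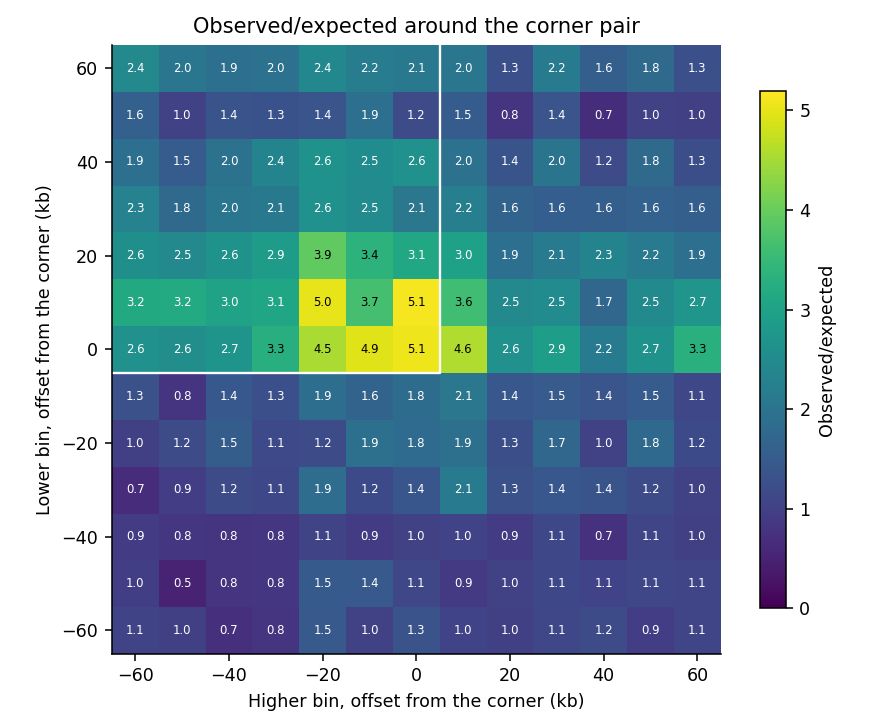
Observed/expected value of each pair of 10 kb bins within 60 kb of the corner pair, by the offset of the higher bin (horizontal) and of the lower bin (vertical) from the corner in kb. The white line is the limit of the stretch, whose inside is at the upper left. Values drop from 5.06 to 1.84 across the lower limit and from 5.06 to 4.58 across the upper limit.

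With 5 kb bins the patch did not resolve into 1 point. The highest lower bound was that of 120985001 to 120990000 with 121375001 to 121380000, inside the corner pair, with 50 read pairs and 7.19 (5.33 to 9.48). The bins at 120990001 and 121350001 had 86 read pairs and 6.64 (5.32 to 8.21), and those at 120990001 and 121375001 had 53 and 6.45 (4.83 to 8.44). The bins at 120980001 and 121360001 had 121 read pairs and 5.60 (4.64 to 6.69). These intervals overlapped, and the lower bin of the first of them holds none of the CTCF matches. The pair of 120985001 with 121380001, outside the stretch, had 5.71 (4.44 to 7.23) and overlapped them too. At this depth the position of the strongest contact was not resolved. The 4 pairs of 5 kb bins inside the corner together gave 5.01 (4.44 to 5.64).

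The contacts of the lowest bin of the stretch reversed along it. With the bins 20 to 120 kb above it, each of its 11 pairs was under 1, with intervals that also lay under 1. Among them, the bin 121000001 at 20 kb gave 0.700 (0.643 to 0.760) with 559 read pairs. The lowest value of any member, 0.477 (0.411 to 0.550), was its pair with 121030001 at 50 kb, with 188 read pairs. Farther on, its pair with 121170001 at 190 kb had 1.00 (0.870 to 1.15). From 260 kb on each pair had an interval above 1, with 1.77 (1.48 to 2.10) for 121280001 at 300 kb, 2.57 (2.17 to 3.03) for 121320001 at 340 kb and 5.06 at the corner. In KR values this bin had 74.1 with 121230001 at 250 kb and 248 with 121370001 at 390 kb. It met the far end of the stretch more often than its middle.

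The highest bin of the stretch gave a similar profile with a shallower low part. Its pair with 121350001 at 20 kb had 340 read pairs and 0.777 (0.696 to 0.864), and its pair with 121220001 at 150 kb had 0.805 (0.671 to 0.959). With 121030001 at 340 kb it had 73 read pairs and 1.19 (0.934 to 1.498), low beside its pairs with 121020001, at 2.63 (2.21 to 3.11), and 121040001, at 2.10 (1.72 to 2.54). The bin 121030001 was also the weakest member bin in the sum over the stretch.

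**Figure D4:**
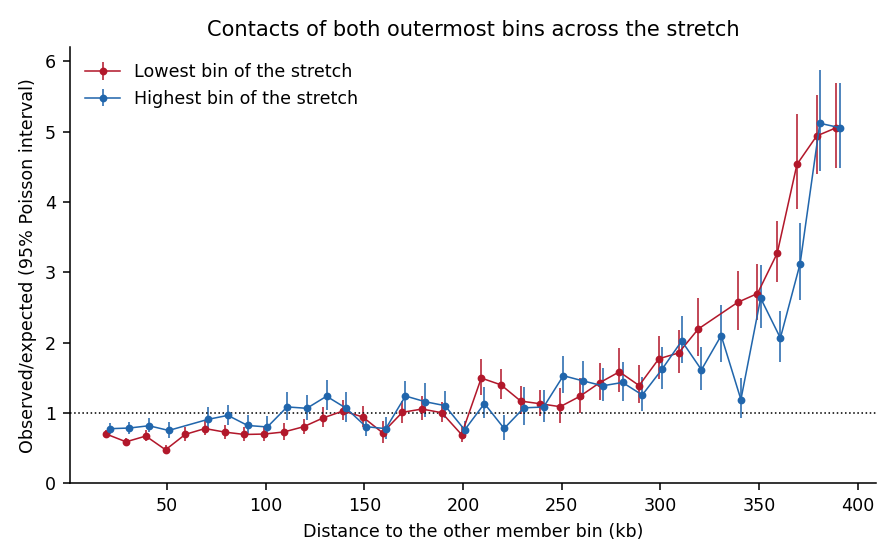
Observed/expected value, with 95% Poisson intervals, of the lowest bin (red) and the highest bin (blue) of the stretch with every other member bin, against distance in kb. The red values lie under 1 up to 120 kb and both series climb to 5.06 at 390 kb, where they share the corner pair.

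The lowest bin was divided between the domains on both sides. Of its 24125 read pairs at 20 kb or more, the Inhbb bin included, 30.01% (Wilson 95% interval 29.4 to 30.6%) went to the stretch and 30.1% (29.5 to 30.7%) to the Gli2 domain. Both shares were below those expected, which were 36.7% for the stretch and 34.6% for the Gli2 domain. Neither count was below its expected count, with observed/expected values of 1.003 (0.980 to 1.026) and 1.07 (1.04 to 1.09). A further 13.7% (13.3 to 14.2%) went to the 400 kb above the stretch, with observed/expected at 2.298 (2.22 to 2.38). The bin below it, 120970001, sent 45.3% (44.6 to 46.0%) to the Gli2 domain and 19.7% (19.1 to 20.2%) to the stretch. The bin above it, 120990001, sent 20.6% (19.96 to 21.2%) to the Gli2 domain and 41.1% (40.3 to 41.8%) to the stretch. The change from one side to the other thus took 2 bins. This lowest bin was also the upper end of the pair with the highest lower bound at the corner of the Gli2 domain. That pair, 120660001 with 120980001, had 722 read pairs and 7.68 (7.13 to 8.26). At the upper end the shares inside the stretch stayed near those expected, with 45.2% at 121340001 (41.4% expected), 35.2% at 121360001 (34.5%), 33.8% at 121370001 (33.5%) and 32.8% at 121380001 (35.1%).

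By the rule for enriched pairs (at least 100 kb apart, at least 10 read pairs, a lower bound of observed/expected above 1.5 and a value above 1.5 times that of the ring), 21 of 441 member pairs were called (4.76%), against 1.61% of all map pairs at 100 to 390 kb and 2.64% of those at any distance from 100 kb. All 441 met the minimum count. Rings of pairs at the lower edge take in the lower values below it, so the ring condition is easier to meet there. The 21 formed 2 clusters. The larger had 17 pairs, among which the corner pair had the highest lower bound (4.48) and 120990001 with 121370001 the highest value (5.12), and reached in to 121020001 with 121300001, at 280 kb, with 158 read pairs and 2.91 (2.48 to 3.40). The smaller had 4 pairs, led by 121000001 with 121260001, at 260 kb, with 128 read pairs and 2.29 (1.91 to 2.72). Its other pairs joined 121000001 to 121250001 (2.21) and 121240001 (1.92), and 120990001 to 121260001 (1.98). Among its upper bins, 121240001 holds the inner CTCF match printed above.

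Without the condition on the ring, 65 member pairs (14.7%) had a lower bound above 1.5, against 4.81% of the map pairs. Of these 65, 53 joined the first and the last 100 kb of the stretch, which hold 90 pairs. The shortest spanned 210 kb, and none lay under 200 kb. None of the 441 had an upper bound under 1/1.5, against 10.4% of the map pairs. The corner was part of the rule, so these counts describe its extent.

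With a 50 kb window, no inner boundary was seen that did not depend on the left-out bin. The insulation score averages the KR values that link the 50 kb below a bin to the 50 kb above it, as a log2 value relative to the median bin. It was −1.31 in the lowest bin and ran from −0.42 to 0.30 in the 34 bins at least 3 bins from each end. With the Inhbb bin left out, 1 inner minimum had a prominence of at least 0.2, in the bin 121320001 next to the left-out bin, with a score of −0.42. With the Inhbb bin kept there was none, and the score of 121320001 was −0.27. With observed/expected in place of KR values there was none either, with a score of −0.23. Leaving out a bin removes the shortest and therefore highest KR values from the windows beside it, which lowers the score there by construction. The boundary bin in Ralb, 121360001, scored −0.34 without the Inhbb bin and −0.45 with it. It was called as a boundary with a 150 kb window and the Inhbb bin kept. With that bin left out, the 150 kb minimum at this end lay at 121350001, which overlaps no annotated gene. The place of this boundary thus depended on the settings.

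A 30 kb window, with the Inhbb bin left out, gave 3 inner minima, at 121040001 with a score of −0.14, at 121200001 with −0.08, and at 121300001 with −0.57, the last again beside the left-out bin. The first and second had prominences of 0.25 and 0.26. They were shallow beside the lowest bin, whose prominence with this window was 1.80.

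**Figure D5:**
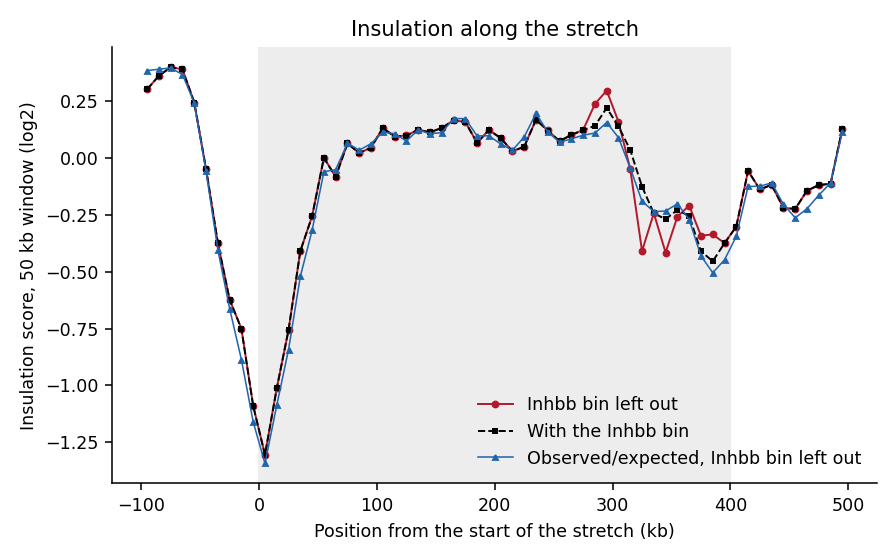
Insulation score (log2, 50 kb window) of each 10 kb bin against its position in kb from the start of the stretch, which is shaded. Red leaves out the Inhbb bin, black keeps it and blue uses observed/expected values. The lowest bin scores −1.31 in red, and at 121320001 the red line falls to −0.42 where black is at −0.27 and blue at −0.23.

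No deficit of contacts was seen between the lower and upper 200 kb of the stretch either. At 20 to 200 kb, the 202 pairs that crossed the middle at 121180001 had a summed observed/expected value of 1.13, and the 325 pairs on 1 side of it had 0.997. The ratio was 1.13 (1.12 to 1.14). The 2 sets were not matched in distance, and crossing pairs tend to be farther apart. Observed/expected in the stretch rose from 1.002 at 20 to 90 kb to 1.13 at 100 to 190 kb. Pairs on 1 side also include the outer blocks, with 0.884 and 0.836. An excess of crossing contacts can therefore not be read from this ratio. With expected values from pairs inside 1 domain it was 1.07.

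Values in the same distance class also differed with position. At 200 to 290 kb, pairs with the lower end in the first 50 kb gave 1.47 (1.44 to 1.51), pairs with the higher end in the last 50 kb gave 1.25 (1.22 to 1.29), and pairs with neither gave 1.38 (1.35 to 1.42). At 100 to 190 kb the same groups gave 1.12 (1.10 to 1.14), 0.961 (0.938 to 0.985) and 1.17 (1.16 to 1.19). Pairs with an end in the last 50 kb were the lowest in both classes, outside counting error. The other 2 groups at 200 to 290 kb depended on the expected value. Without poorly covered bins, pairs starting in the first 50 kb gave 1.60 (1.56 to 1.64) and pairs with neither 1.56 (1.52 to 1.59), with overlapping intervals. Against pairs inside 1 domain both gave 1.22. No difference between these 2 groups is read here, and distances within a class were not matched.

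Single bins differed modestly in their summed contacts with the rest of the stretch. Over the 39 bins, observed/expected ran from 0.884 to 1.25 with a median of 1.12. It lay above 1 by its interval in 27 bins, under 1 in 5 bins and spanned 1 in 7. The highest were 121040001 to 121050000 at 1.25 (1.23 to 1.28), 121000001 to 121010000 at 1.25 (1.22 to 1.28) and 121250001 to 121260000 at 1.22 (1.198 to 1.24). The lowest were 121030001 to 121040000 at 0.884 (0.865 to 0.903), 121210001 to 121220000 at 0.951 (0.933 to 0.969) and 121320001 to 121330000 at 0.974 (0.949 to 0.9992). The highest and the lowest were direct neighbours, at 121040001 and 121030001, with similar totals of 26571 and 29906 read pairs. They held 21 and 16 DpnII sites, the latter the fewest of any member bin together with 121350001, and the part of site density in this difference was not tested. None of these 6 bins overlaps an annotated gene.

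The bins just outside the stretch differed between its ends. Contacts of 120970001 with the member bins gave 0.568 (0.551 to 0.586), while the first member bin inside, 120980001, gave 0.986 (0.963 to 1.009). Contacts of 121380001 with the member bins gave 1.07 (1.05 to 1.10), against the 1.14 (1.11 to 1.17) of the last member bin. The step in contacts with the stretch was thus smaller at the upper limit of the rule than at the lower limit.

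Among the 10 domain corners scored, that of the Inhbb stretch was the third strongest. The map has 13 boundaries, and the short domains between those at 119990001 and 120170001 had no corner scored. Over the 25 pairs within 2 bins of both boundary bins, summed observed/expected was 2.95 (2.86 to 3.04) here, 3.36 (3.27 to 3.45) at the Gli2 domain and 1.58 (1.497 to 1.66) at the domain next above, and over all 7 weaker corners it ran from 0.573 to 2.01. It was 6.93 (6.74 to 7.13) at the domain of En1, which encodes a homeobox transcription factor and is the gene the study is about. These intervals do not overlap, but cover counting error only. The rank depended on the measure. By the single pair with the highest lower bound, the domain from 122040001 to 122460001 was also above the Inhbb stretch. It had 5.89 (5.22 to 6.63) against 5.06 (4.48 to 5.69), with overlapping intervals. The highest value of a pair at the Inhbb corner, 5.12 (4.44 to 5.87), was also lower, with an overlapping interval.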

How the data were processed

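The authors deposited raw counts of read pairs per bin pair, without normalization, and a balanced contact signal (KR in the file names, read here as Knight-Ruiz balancing), both for 1 wild-type map named as merged, whose relation to each of the 2 samples is not stated. Per the file names, reads were processed with HiCUP, with a mapping quality minimum of 30. Per the submitters' processing notes, mm9, Bowtie2 2.3.4.1, Juicer 1.7.6 and SAMtools were used. The 5 and 10 kb tables were used, and those of 25 and 50 kb were not. Genes came from GENCODE M1 and sequence from NCBIM37, the same assembly as mm9, with 1-based coordinates.

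Balancing factors were recovered from raw count over KR. Expected counts, exact Poisson intervals, slopes with propagated Poisson error, insulation scores and enriched pairs were computed with Python 3.11.15, numpy 2.4.6 and scipy 1.17.1, and tested on simulated data. Poorly covered bins had under 25% of the median total. Domains were called with a 150 kb window and a prominence of 0.2. There are no replicates, so no p-values were computed, and read pairs carry no molecular identifiers. Named regions were the corner and its neighbours, inner insulation minima, the strongest pair of each enriched cluster, the 3 highest and 3 lowest bins, and overlapping genes. Members, lists and settings were chosen with earlier results of these data known.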

Additional observations from a re-analysis of the deposited data

How the results depend on the processing

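Leaving out a replicate could not be run on a merged map. No paired analysis was possible because the map used is merged and holds no values per sample. Changes were judged against counting error alone, and apart from constructions named here the cause was not tested. None of the results named in the next paragraph changed direction. Other values crossed 1, among them observed/expected of members at 200 kb, which turned from 0.926 to 1.35 without poorly covered bins. That of the third with the last 100 kb block turned from 1.04 to 0.992 against pairs inside 1 domain. At 100 to 190 kb, pairs with the lower end in the first 50 kb turned from 1.12 to 0.997 against pairs inside 1 domain. Pairs at that distance with the higher end in the last 50 kb turned from 0.961 to 1.003 (0.979 to 1.03) without poorly covered bins.

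The decay slope of −0.640 was −0.734 on raw counts, −0.623 with 5 kb bins, −0.418 over all distances, −0.508 over 50 to 300 kb, −0.819 over 20 to 150 kb and −0.657 from medians. Observed/expected over all members, 1.08, was 1.07 with 5 kb bins, 1.61 from distance alone (which ignores the high coverage of these bins), 1.13 both from medians per distance and without poorly covered bins, 1.15 at 50 kb or more and 1.04 against pairs inside 1 domain. The corner value of 5.06 was 5.81 from distance alone, 6.29 from medians, 2.89 against the ring and 2.83 against pairs inside 1 domain. The 21 enriched pairs were 95 and 7 with thresholds of 1.2 and 2, and 65 without the ring. The 1 inner insulation minimum became 3 with a 30 kb window and with a prominence of 0.1, and 0 with a 100 kb window, with the Inhbb bin and on observed/expected values. The ratio of contacts across the middle, 1.13, was 1.27 from distance alone, 1.14 and 1.09 with the split 50 kb lower and higher, and 1.07 against pairs inside 1 domain. The ratio of the highest to the lowest bin, 1.42, was 1.88 with 5 kb bins, 2.63 from distance alone and 1.51 at 50 kb or more. Alternatives against pairs inside 1 domain and insulation on observed/expected values were added after the data were seen. Depth limited the 5 kb pairs most, with a median of 48 read pairs.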
